A study of Mus musculus with 24 samples.

Results

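Gene expression was compared between male and female wild-type (WT) mice in tibialis anterior, a fast muscle of the lower hindlimb. The comparison used the 12 arrays whose titles end in WT, of 24 in the series, 6 marked M and 6 marked F. The labels give their sex as male and female. All were untreated C57BL/6J mice of about 4 months, kept in a 12 h light and dark cycle, with normal chow. The other 12 arrays came from Vps39+/- mice of the same strain and age, 6 per sex, which carry a germ-line disruption of 1 allele of Vps39, a gene for endosome and lysosome tethering. Both WT groups carry no engineered allele. RNA was taken from whole muscle, so fewer cells of a type and less RNA per cell cannot be told apart. Only autosomal genes are described, 18723 probe sets among 19572 that carry 1 gene symbol. Levels are log2 values after Robust Multi-array Analysis (RMA), differences are males minus females on the log2 scale, and a difference of 1 is a doubling.

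Skeletal muscle is built of slow fibres, which rely on mitochondrial respiration, and fast fibres, which rely more on glycolysis. Sex hormones and growth hormone act on both its mass and its metabolism. Muscle also holds a circadian clock, in which the proteins of Arntl (BMAL1) and Clock or Npas2 pair up to drive E-box genes. Among their targets are the Per and Cry repressors, and Nr1d1 and Nr1d2 (REV-ERB), which repress Arntl in turn. Dbp and related factors carry the rhythm to further genes through D-box elements.

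The 12 WT arrays had medians between 5.55 and 5.64, and pairs of them correlated across genes with Pearson's r between 0.935 and 0.988. All 7 measured sex-linked genes of the check list passed, the Y-linked ones higher and the X-linked ones lower in males. The defining genes of fast muscle were bright, with Myh4 at a mean of 13.57 over the WT arrays and Myh1 at 12.93. Vps39 was at 7.31 ± 0.45 in WT females and 7.69 ± 0.40 in WT males, and at 7.84 ± 0.60 and 7.84 ± 0.32 in females and males labelled Vps39+/- (SD, n = 6 each), so that it was not lower in the arrays with that label. Whether its probe set lies in the deleted part is not known here. The paper reports lower Vps39 in tibialis anterior of Vps39+/- mice by quantitative PCR, with an assay that spans the deleted part. Transcripts typical of liver were present in some muscles. Alb, the gene for serum albumin, ranged from 7.06 to 13.56 in WT females with a median of 10.62, and from 5.38 to 11.18 in WT males with a median of 6.68. Alb was above 11 in WT females 2, 3 and 6 and in WT male 6, and the groups overlapped. Its mean was 10.46 ± 2.91 in females and 7.22 ± 2.03 in males (SD, n = 6 each), a difference of -3.24 (exact two-sided permutation test, p = 0.0563). Where a call ended with Alb as a covariate or without these 4 arrays, that value is given beside it. The first number of the titles runs from 7 to 12 in WT females and from 19 to 24 in WT males. Neither its meaning nor the hour at which muscle was taken is given in the sources used here, and neither can be told apart from sex.

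Limma's moderated test, adjusted by Benjamini-Hochberg over all 19572 probe sets, called 241 of 18723 autosomal probe sets at 0.05, a share of 1.29%. Of these, 160 were higher in males (0.855% of those tested) and 81 were lower (0.433%). The share of calls that were higher was 66.4%, and it was 78.3% after shifting each array to the same median and 50.6% after cyclic loess. The median size of the called differences was 0.51, and 27 exceeded 1. The 6 males and the 6 females did not overlap for 172 of the called probe sets, and for 305 of all autosomal probe sets (1.63%). Of the called probe sets, 22 were dim, with a mean under 5. Before adjustment 2671 probe sets had p under 0.05.

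The clock genes held the densest set of calls among the lists. The lists were chosen with earlier results of these data known, so this ranking is a description only. Of 20 measured core clock genes, 6 rose in males and 3 fell (45.0% of the list called, against 1.29% of all autosomal probe sets). The median difference over the list was 0.12, against 0.02 over all autosomal probe sets, and members moved in both directions. The 3 that fell were the activators.

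Arntl ranged from 7.54 to 8.57 in WT females with a median of 8.00, and from 6.45 to 7.05 in WT males with a median of 6.48. Every male lay below every female. The difference was -1.43 (SE 0.16, limma adjusted p = 6.47e-06), a level 2.69-fold higher in females. Npas2, the partner of Arntl that can stand in for Clock, ran from 4.60 to 5.61 in females and from 3.81 to 4.45 in males, medians 5.11 and 4.19. These groups did not overlap either (-0.99, SE 0.17, limma adjusted p = 0.00243), though the gene was dim, with a mean of 4.65 over the WT arrays. Clock itself ranged from 9.20 to 9.62 in females and from 8.87 to 9.28 in males, with medians of 9.51 and 8.98. WT female 2 lay within the male range, and the call was close to the threshold (-0.41, SE 0.10, limma adjusted p = 0.0476). It ended without the 4 arrays of highest Alb (-0.49, limma adjusted p = 0.101).

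Of the repressors, Per2, Per3, Cry2, Ciart, Bhlhe41 and Nr1d2 rose in males. Per2 lay between 5.18 and 6.01 in WT females (median 5.45) and between 6.68 and 7.05 in WT males (median 6.79). All males stood above all females, by 1.26 on average (SE 0.12, limma adjusted p = 7.94e-07). Per3 spanned 5.04 to 6.47 in females and 6.80 to 7.20 in males, with medians of 6.199 and 6.90 and no overlap (0.93, SE 0.18, limma adjusted p = 0.00631). Cry2 had a female range of 7.62 to 8.11 and a male range of 8.20 to 8.62, medians 7.91 and 8.48, again apart (0.57, SE 0.09, limma adjusted p = 0.00115). Per1 did not overlap between the sexes, with a female maximum of 7.92 and a male minimum of 8.03, but its difference of 0.42 did not pass (limma adjusted p = 0.0756).

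Ciart (CHRONO), a repressor that acts on the Arntl and Clock pair, showed the largest clock difference. Its levels were 3.54 to 5.37 in WT females (median 4.81) and 6.60 to 7.08 in WT males (median 6.81). The male values were tight and the female values were spread over a wide range below them (2.11, SE 0.23, limma adjusted p = 4.51e-06, 4.33-fold). With the female median in the dim range, where RMA compresses levels, the fold is approximate. Bhlhe41 (DEC2), which competes for E-boxes, ran from 8.00 to 8.44 in females and from 8.99 to 9.37 in males, medians 8.28 and 9.31. The sexes were apart by 0.99 (SE 0.11, limma adjusted p = 8.59e-06). Nr1d2 (REV-ERB beta) was 8.71 to 8.98 in females and 9.17 to 9.35 in males, medians 8.80 and 9.23, without overlap (0.40, SE 0.06, limma adjusted p = 0.000596). Its relative Nr1d1 was at -0.24 and Cry1 at 0.07, and neither passed (limma adjusted p = 0.51 and 0.85).

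**Figure D1:**
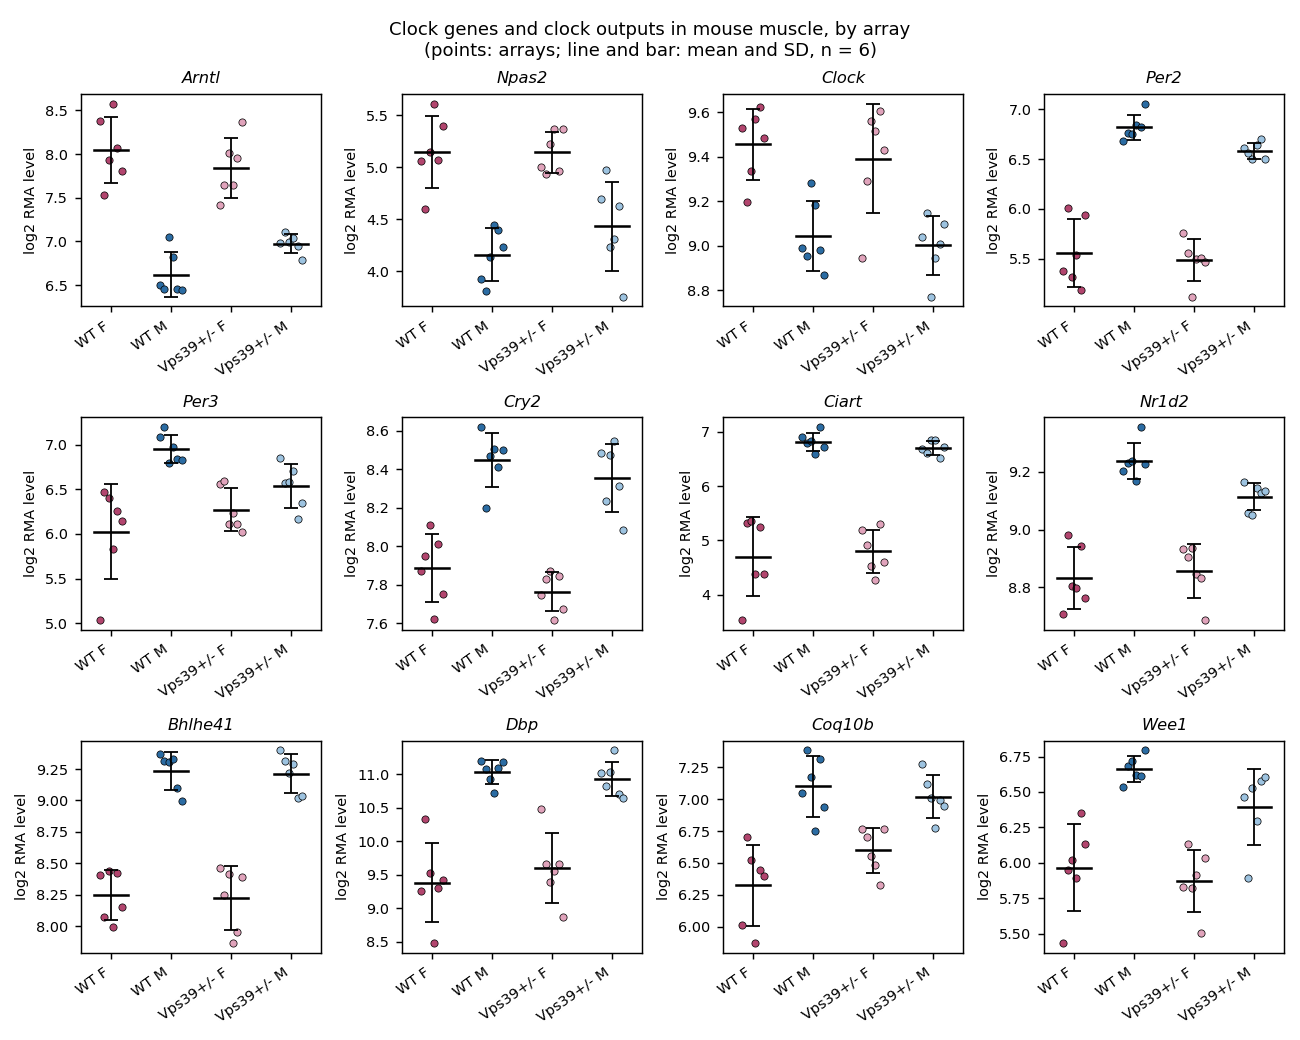
Log2 RMA levels of 9 core clock genes and 3 clock outputs in each of 24 muscles, by genotype and sex (points, arrays; line and bar, mean and SD, n = 6 per group). WT males lie below WT females without overlap for Arntl and Npas2, and lower with overlap for Clock. They lie above WT females without overlap for the 6 called repressors and for Dbp, Coq10b and Wee1.

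Of 21 measured clock output genes, 5 rose in males and 0 fell (23.8% called, against 1.29% of all autosomal probe sets). The list median was 0.20. Dbp, the D-box factor that is a direct clock target, ranged from 8.48 to 10.32 in WT females (median 9.36) and from 10.72 to 11.20 in WT males (median 11.08). The lowest male exceeded the highest female, and the mean difference was 1.65 (SE 0.23, limma adjusted p = 0.00017, 3.14-fold). Coq10b, a mitochondrial coenzyme Q binding protein, was 5.87 to 6.71 in females and 6.75 to 7.38 in males (0.78, SE 0.13, limma adjusted p = 0.00174). Wee1, a mitotic kinase under clock control, stood 0.70 higher and the tetraspanin Tspan4 0.56 higher in males (limma adjusted p = 0.00512 and 0.0046), both without overlap. Tcap (telethonin), a cap of titin at the Z-disc, was 0.34 higher (limma adjusted p = 0.0386). The Tcap call ended with Alb as a covariate (limma adjusted p = 0.0921) and without the 4 arrays of highest Alb (0.257), and the Wee1 call ended in the latter fit (limma adjusted p = 0.066). Of the outputs that did not pass, the D-box factors Hlf and Tef were at 0.54 and 0.30, and their antagonist Nfil3 was at -0.71.

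Since clock factors act through short promoter elements, the RefSeq promoters (GRCm38.p6) of the 14 called clock and output genes were searched. Per2, Wee1 and Tcap had no entry used here, which left 11 genes with 15 start sites. The E-box was searched as CACGTG, the D-box as TTATGTAA or TTATGCAA, and the core of the REV-ERB and ROR element as TAGGTCA, on both strands, in the 250 bases upstream of each start. The motifs do not overlap each other. The E-box lay at 4 of the 15 starts, in Ciart, Bhlhe41, Coq10b and Tspan4, against 6.02% of all 32851 mouse starts. The D-box lay at 2, in Per3 and Coq10b, against 1.5% of all starts, and TAGGTCA at 0, against 2.23%. The stretches that hold the matches are shown for 4 genes that rose in males, with the motifs in capitals. Each reads 5′ to 3′ on the strand of the gene.
Ciart, chr3:95882259-95882364, minus strand, 136 to 31 bases upstream of the start: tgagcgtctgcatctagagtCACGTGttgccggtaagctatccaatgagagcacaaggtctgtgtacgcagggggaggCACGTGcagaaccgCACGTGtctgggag
Bhlhe41, chr6:145865560-145865593, minus strand, 173 to 140 bases upstream: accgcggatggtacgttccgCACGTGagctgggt
Coq10b, chr1:55052588-55052705, plus strand, 182 to 65 bases upstream: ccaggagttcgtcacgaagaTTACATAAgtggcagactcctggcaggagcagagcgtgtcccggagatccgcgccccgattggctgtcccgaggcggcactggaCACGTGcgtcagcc
Per3, chr4:151044808-151044890, minus strand, 225 to 143 bases upstream: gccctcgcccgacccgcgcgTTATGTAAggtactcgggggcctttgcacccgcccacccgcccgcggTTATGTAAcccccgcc
Ciart, with the largest difference of the clock list, holds 3 E-boxes in this stretch, and Per3 holds 2 D-boxes. In Coq10b the D-box is on the opposite strand and reads TTACATAA. Dbp, Cry2, Nr1d2, Arntl, Npas2 and Clock held none of the 3 motifs in the window searched.

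Outside the clock, the largest autosomal increases in males included 2 genes of polyamine metabolism. Polyamines are small cations made from ornithine by Odc1 and extended with a group donated through the product of the Amd genes, while Smox oxidises spermine back. Of 18 measured polyamine genes, 3 rose and 0 fell (16.7% called, against 1.29% of all autosomal probe sets). The list median was 0.10. Amd2, an S-adenosylmethionine decarboxylase, was 7.78 to 8.50 in WT females (median 8.15) and 9.68 to 10.55 in WT males (median 9.95). The sexes were far apart (1.87, SE 0.15, limma adjusted p = 4.41e-08, 3.66-fold). Amd2 has a near-identical relative, Amd1, for which no probe set is named here, so the signal may hold both. Smox ran from 8.44 to 9.21 in females and from 9.94 to 11.05 in males, medians 8.97 and 10.43, without overlap (1.52, SE 0.18, limma adjusted p = 1.01e-05). Odc1, the rate-limiting enzyme, ranged from 7.44 to 8.36 in females and from 8.08 to 9.17 in males, with medians of 7.66 and 8.67. These ranges overlapped through WT female 1, and the call was near the threshold (0.92, SE 0.22, limma adjusted p = 0.0386). It ended with Alb as a covariate (0.85, limma adjusted p = 0.142) and without the 4 arrays of highest Alb (0.85, limma adjusted p = 0.277). Of the members that did not pass, Arg1, an arginase abundant in liver, was the lowest at -1.55 (limma adjusted p = 0.338) and Agmat was at -0.64, while Srm was at 0.12 and Dhps at 0.31.

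The largest increase of any autosomal gene was that of Slc15a5, a member of the peptide transporter family. It ranged from 4.07 to 5.16 in WT females (median 4.53) and from 7.07 to 7.79 in WT males (median 7.49). Every male exceeded every female by a wide margin (2.94, SE 0.20, limma adjusted p = 1.85e-09, 7.699-fold). The female median lay under 5, in the dim range where RMA compresses levels, so the fold is approximate. The complement component C7 was 4.50 to 5.33 in females and 6.55 to 7.76 in males, medians 5.12 and 7.18, also apart (2.11, SE 0.16, limma adjusted p = 1.15e-08). Cdk19, a kinase of the Mediator complex, ran from 6.61 to 7.05 in females and from 7.81 to 8.78 in males (1.32, SE 0.16, limma adjusted p = 1.6e-05). Chac1, which degrades glutathione, and the uncharacterised gene 1700001O22Rik rose by 1.52 and 1.54 without overlap (limma adjusted p = 0.00309 and 0.00348). Htra4, a secreted serine protease, rose by 1.37 with overlapping groups (limma adjusted p = 0.0345), a call that ended with Alb as a covariate and without the 4 arrays of highest Alb (limma adjusted p = 0.102 and 0.0698).

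Among called genes with a mean of 5 or more, the largest decreases in males were those of Cyfip2 and Mybph. Alb, at -3.24, lay lower but did not pass. Cyfip2, a subunit of the WAVE actin regulator, was 7.71 to 9.02 in WT females (median 8.57) and 4.84 to 7.47 in WT males (median 5.13). WT male 6 alone accounted for the high end of the males, and no male reached the lowest female (-2.91, SE 0.34, limma adjusted p = 1e-05, 7.54-fold higher in females). Mybph, myosin binding protein H of the thick filament, ran from 7.83 to 9.48 in females and from 5.17 to 6.62 in males, medians 8.59 and 6.02. The groups were apart (-2.78, SE 0.28, limma adjusted p = 1.14e-06). Ppp1r1a, an inhibitor of protein phosphatase 1, was 8.28 to 8.73 in females and 6.76 to 7.54 in males (-1.43, SE 0.15, limma adjusted p = 4.36e-06). Mettl21e, a lysine methyltransferase of muscle, fell by 1.102 (limma adjusted p = 0.00243). The probe set named for the microRNA gene Mir675, whose host transcript is H19, was at -0.94 (limma adjusted p = 0.0022). H19 has no probe set of its own name here, and the 2 cannot be told apart. Masp1, a protease of the lectin pathway of complement, was at -1.17 (limma adjusted p = 0.00926), and its call ended with Alb as a covariate (-0.82, limma adjusted p = 0.0525) and without the 4 arrays of highest Alb (limma adjusted p = 0.167).

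**Figure D2:**
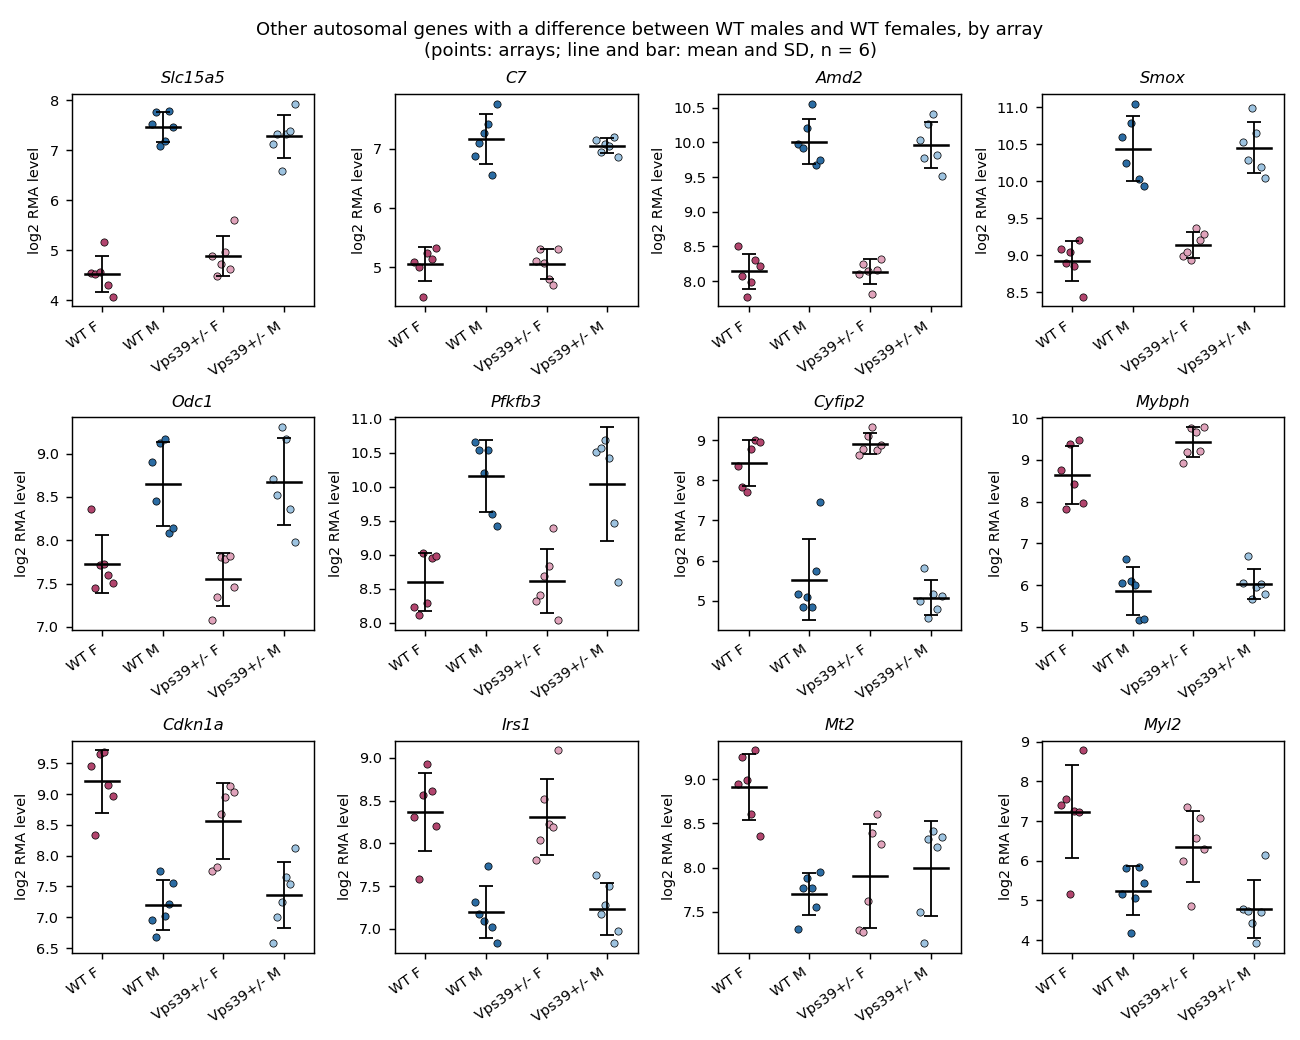
Log2 RMA levels of 12 further autosomal genes in each of 24 muscles, by genotype and sex (points, arrays; line and bar, mean and SD, n = 6 per group). WT males lie wholly above WT females for Slc15a5, C7, Amd2, Smox and Pfkfb3 and wholly below for Cyfip2, Mybph, Cdkn1a and Mt2, while Odc1, Irs1 and Myl2 overlap.

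Among metabolic genes, 5 passed. Of 36 measured genes of glycolysis and glycogen, 1 rose and 0 fell (2.78% called, against 1.29% of all autosomal probe sets, median 0.05). It was Pfkfb3, whose product makes the allosteric activator of phosphofructokinase. Pfkfb3 ranged from 8.12 to 9.03 in WT females (median 8.62) and from 9.42 to 10.66 in WT males (median 10.38), without overlap (1.56, SE 0.31, limma adjusted p = 0.00973). Hexokinase 2 (Hk2) was the next, with a female maximum of 10.51 and a male minimum of 10.54. Its difference of 0.30 did not pass (limma adjusted p = 0.0547). The list ran from -0.56, for the fructose bisphosphatase Fbp2 (limma adjusted p = 0.176), to Pfkfb3, and 8 of 36 had an unadjusted p under 0.05. Aldoa, Gapdh and Pygm, among the brightest, differed by less than 0.05 in size.

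Of 29 measured genes of insulin signalling and glucose uptake, 1 rose and 1 fell (6.9% called, against 1.29% of all autosomal probe sets). The list median was -0.09. Irs1, the docking protein that carries the signal of the insulin receptor, ranged from 7.58 to 8.93 in WT females (median 8.43) and from 6.83 to 7.74 in WT males (median 7.13). The groups overlapped only through WT female 2 and WT male 4 (-1.17, SE 0.21, limma adjusted p = 0.00303, 2.25-fold higher in females). Slc2a3 (GLUT3), a glucose transporter of high affinity, was 4.56 to 5.03 in females and 5.32 to 6.48 in males, medians 4.82 and 5.99. It was higher in every male than in any female (1.16, SE 0.18, limma adjusted p = 0.000627). The main glucose transporter of muscle, Slc2a4 (GLUT4), was at -0.12 and the insulin receptor Insr at -0.15, neither past the threshold (limma adjusted p = 0.43 and 0.58). Pik3r1, the regulatory subunit of the lipid kinase downstream of Irs1, was at -0.46 (limma adjusted p = 0.107).

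Of 26 measured genes of the TCA cycle and pyruvate, 1 rose and 1 fell (7.69% called, against 1.29% of all autosomal probe sets). The list median was 0.12. Pdp1, the phosphatase that activates pyruvate dehydrogenase, ran from 9.00 to 10.12 in WT females and from 10.10 to 10.36 in WT males, medians 9.52 and 10.26. WT males were tight and only the highest female reached them (0.70, SE 0.14, limma adjusted p = 0.0118). Pcx, pyruvate carboxylase, ran from 7.805 to 8.36 in females and from 7.07 to 7.804 in males, medians 7.91 and 7.17. The groups met at their edges without crossing (-0.73, SE 0.14, limma adjusted p = 0.00501). The Pcx call ended without the 4 arrays of highest Alb (-0.64, limma adjusted p = 0.12).

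Of 69 measured autosomal genes of the respiratory chain, 0 passed with limma, 28 had an unadjusted p under 0.05 and 65 were above 0. Their median difference was 0.13, against 0.02 over all autosomal probe sets. Of those 18723, 10273 were above 0 and 2671 had an unadjusted p under 0.05. The largest difference in the list was that of Atp5l, an ATP synthase subunit. It ran from 10.04 to 10.43 in WT females and from 10.40 to 10.82 in WT males, with overlap (0.35, SE 0.09, limma adjusted p = 0.0532). Uqcrc2 of complex III was at 0.32, and Ndufs4 and Ndufa4, NADH dehydrogenase and respiratory chain subunits, were at 0.29 and 0.23. The median was smaller with Alb as a covariate (0.11, 61 of 69 above 0), after cyclic loess (0.08, 57 of 69) and without the 4 arrays of highest Alb (0.08, 57 of 69). It was larger after shifting each array to the same median (0.16, 67 of 69, 1 called) and with title number as a fixed block (0.24, 68 of 69, 3 called). The mean level of the list per array overlapped between WT females (10.61 to 10.81) and WT males (10.7 to 10.96). In Vps39+/- mice 19 of 69 were above 0, with a median of -0.03. Of 58 genes of fatty acid oxidation and lipid handling, 0 passed with limma, 6 had an unadjusted p under 0.05, and the median was 0.05.

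**Figure D3:**
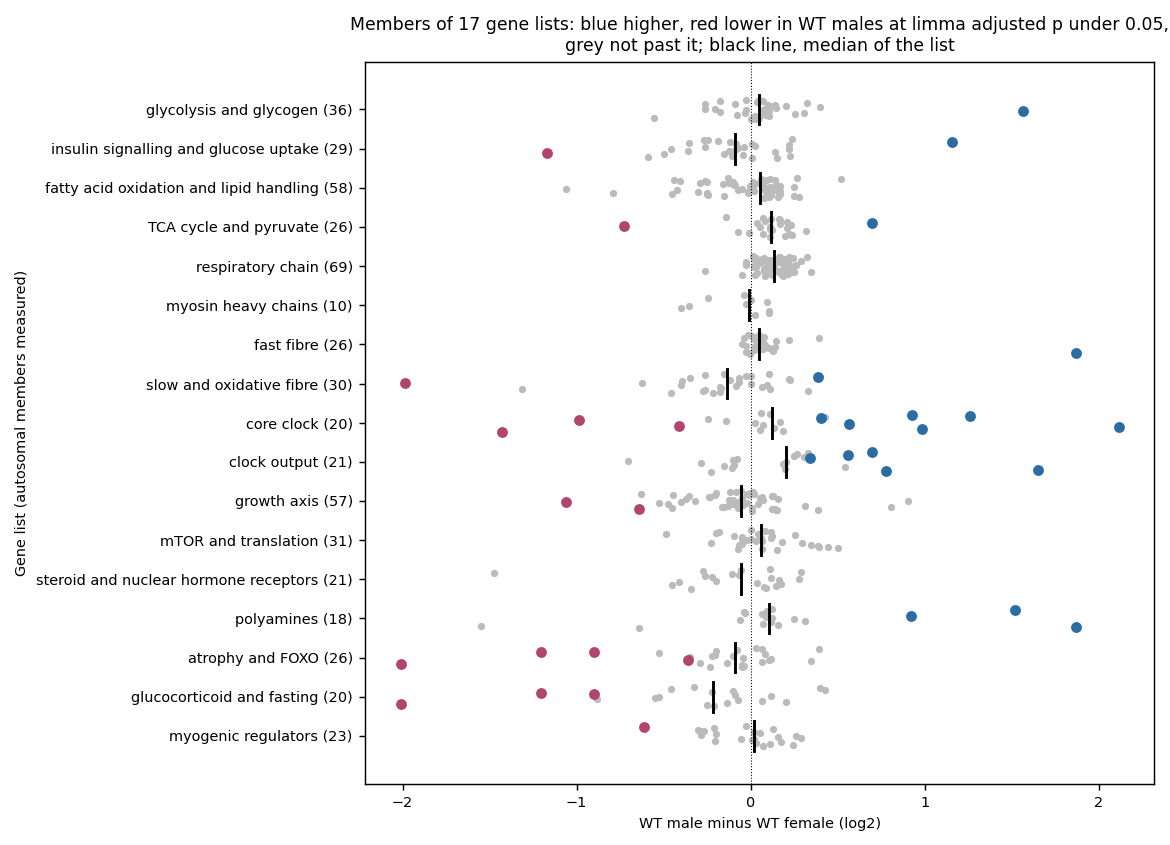
Difference between WT males and WT females (log2, x axis) for every measured autosomal member of 17 gene lists (y axis, with the number of members), blue for members higher and red for members lower in males at a limma adjusted p under 0.05, grey for the rest, and a black line at the list median. Core clock has 6 blue and 3 red members, and the respiratory chain is grey throughout with a median of 0.13.

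No call fell among the myosin heavy chains, which define fibre types. Of 10 measured myosin heavy chain genes, 0 passed with limma and 0 had an unadjusted p under 0.05. All 4 adult limb isoforms are given, and they were added after values were seen. Myh4 (type IIB) was 13.50 to 13.64 in WT females and 13.51 to 13.61 in WT males, so that males were at -0.02 relative to females (95% interval -0.13 to 0.08). Myh1 (type IIX) was at 0.02 (interval -0.10 to 0.14). Both genes lie at the bright end of the scale, where RMA values can be compressed. Myh2 (type IIA) was at -0.40 (interval -0.90 to 0.10) and Myh7 (type I, slow) at 0.00 (interval -0.52 to 0.52), both with wide intervals.

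Of 30 slow and oxidative fibre genes, 1 rose and 1 fell (6.67% called, against 1.29% of all autosomal probe sets). The list had 21 below 0 and a median of -0.14. Myl2, the slow and cardiac regulatory myosin light chain, ranged from 5.15 to 8.78 in WT females (median 7.33) and from 4.17 to 5.84 in WT males (median 5.29). WT female 3 lay among the males, and the other females above them (-1.98, SE 0.47, limma adjusted p = 0.0321). The call ended with Alb as a covariate (-2.09, limma adjusted p = 0.0676), without the 4 arrays of highest Alb (-2.09, limma adjusted p = 0.0533) and on leaving out any of 9 single arrays. Its slow partner Myl3 was at -0.62 (limma adjusted p = 0.15) and slow troponins Tnni1 and Tnnt1 at -0.26 and -0.15. Tbx15, a transcription factor of glycolytic fibres that stands on this list as a regulator, was 9.99 to 10.49 in females and 10.52 to 10.88 in males (0.39, SE 0.09, limma adjusted p = 0.0324). Its call also ended with Alb as a covariate (0.32, limma adjusted p = 0.161) and without those 4 arrays (0.35, limma adjusted p = 0.227). Of 26 fast fibre genes only Amd2, described above, passed (3.85% called, against 1.29% of all autosomal probe sets). The list median was 0.05, with 19 of 26 above 0, though after cyclic loess it was -0.01 with 11 above 0. Among 23 myogenic regulators 1 was called (4.35%, against the same 1.29%). It was Vgll2, a TEAD cofactor of muscle, which fell by 0.61 without overlap (limma adjusted p = 0.00348).

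Of 57 measured genes of the growth axis (growth hormone, IGF, myostatin, BMP and activin signalling), 0 rose and 2 fell (3.51% called, against 1.29% of all autosomal probe sets), with a median of -0.06. Bmp7, a ligand of the BMP family, was 4.21 to 4.98 in WT females and 3.51 to 4.14 in WT males, both dim (-0.64, SE 0.14, limma adjusted p = 0.0145). Igfals, which carries IGF in blood and is known as a product of liver, ranged from 5.27 to 7.13 in females and from 4.56 to 5.44 in males, with overlap (-1.06, SE 0.25, limma adjusted p = 0.0294). It was at -0.86 with Alb as a covariate (limma adjusted p = 0.152) and at -0.61 without the 4 arrays of highest Alb (limma adjusted p = 0.445). Igf1 was at -0.53, Mstn (myostatin) at -0.23, the growth hormone receptor Ghr at -0.05 and Socs2, a growth hormone target, at -0.63, none past the threshold. Of 31 genes of mTOR and translation and 21 steroid and nuclear hormone receptors, 0 passed with limma, with 8 and 7 at an unadjusted p under 0.05. In the latter list Nr4a3, an orphan receptor induced by exercise, had the largest difference (-1.48, limma adjusted p = 0.0678), with a median of 8.66 in females and 6.88 in males.

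Of 26 atrophy and FOXO genes, 0 rose and 4 fell (15.4% called, against 1.29% of all autosomal probe sets). Of 20 glucocorticoid and fasting genes 0 rose and 3 fell (15.0%), and these 3 are shared with the atrophy list. Cdkn1a, the cell cycle inhibitor p21, ranged from 8.34 to 9.68 in WT females (median 9.30) and from 6.68 to 7.75 in WT males (median 7.11). All males lay below all females (-2.01, SE 0.28, limma adjusted p = 0.00017). The metallothioneins, which bind zinc and copper and respond to metals and glucocorticoids, were lower too. Mt2 was 8.36 to 9.32 in females and 7.31 to 7.95 in males (-1.20, SE 0.24, limma adjusted p = 0.0105), and its call ended without the 4 arrays of highest Alb (-1.30, limma adjusted p = 0.0698). Mt1 was 9.22 to 10.07 in females and 8.53 to 9.06 in males (-0.90, SE 0.19, limma adjusted p = 0.0123). Fbxo31, an F-box protein, fell by 0.36 (limma adjusted p = 0.0194), a call that ended without the same 4 arrays (limma adjusted p = 0.0799). The ubiquitin ligases best known for atrophy, Fbxo32 (atrogin-1) and Trim63 (MuRF1), were at 0.12 and 0.03 and did not pass. The glucocorticoid targets Fkbp5 and Klf15 were at -0.55 and -0.53, also not past the threshold.

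All calls were then checked against Alb. All 25 measured liver genes were below 0 in males, with a median difference of -2.17 and 0 passing with limma, while 18 had an unadjusted p under 0.05. The mean level of the liver list ran from 4.95 to 10.97 in WT females and from 4.71 to 7.00 in WT males. With Alb as a covariate 116 autosomal probe sets were called, 111 of them among the 241, and without the 4 arrays of highest Alb 98 were called, 71 of them among the 241. All 241 kept their sign in both fits, which reuse arrays of the full fit and so are no separate evidence. The median size of the 241 differences was 0.51 in the full fit, 0.51 with the covariate and 0.50 without the 4 arrays, and 14 shrank by more than 1.5 times in the last. That fit holds only 3 WT females. Of 45 named autosomal genes that had passed, those that passed in both fits included Cyfip2, Mybph, Slc15a5, C7, Amd2, Smox, Arntl, Npas2, Per2, Per3, Cry2, Ciart, Bhlhe41, Nr1d2, Dbp, Coq10b, Pfkfb3, Irs1, Slc2a3, Cdkn1a and Mt1. Masp1, Igfals, Myl2, Tbx15, Htra4, Odc1, Tcap, Rgs5 and Musk passed in neither, and Clock, Mt2, Pcx, Wee1 and Fbxo31 passed only with the covariate.

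**Figure D4:**
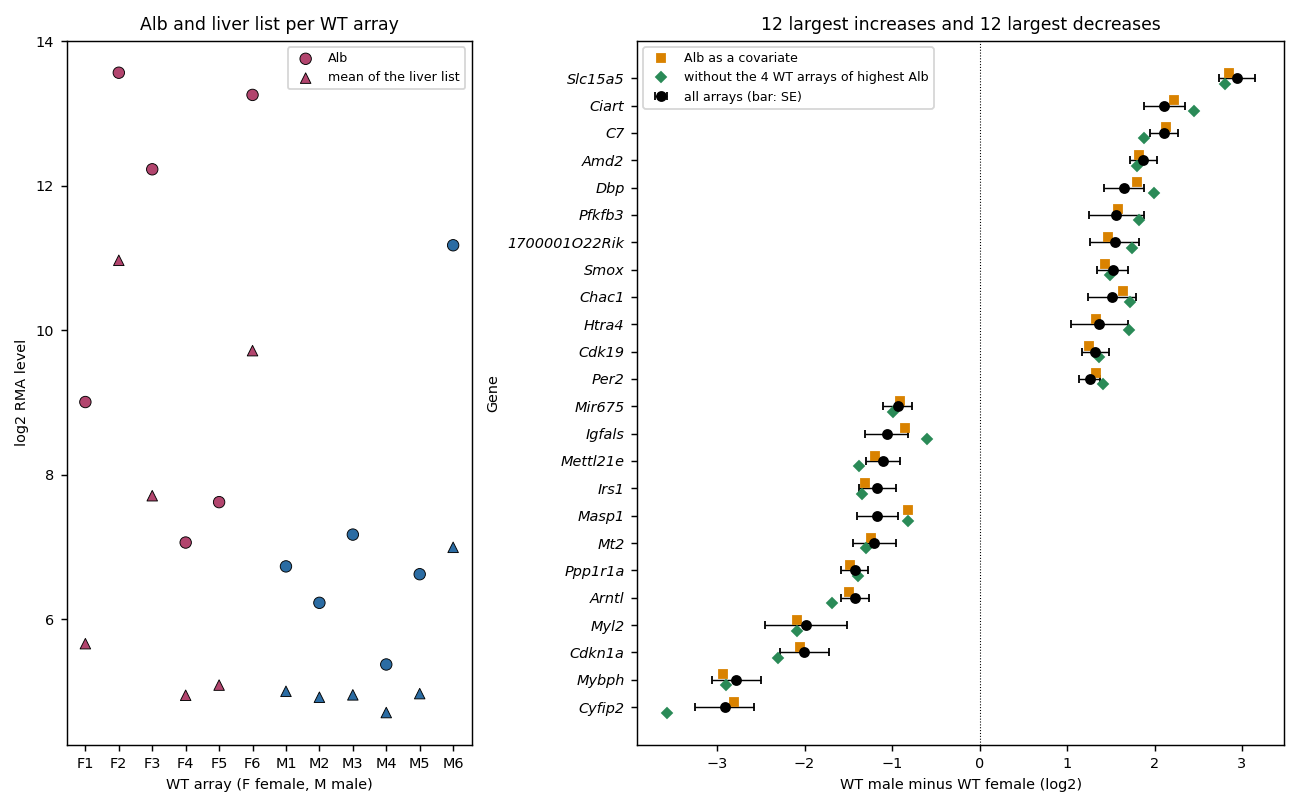
Left, log2 RMA levels of Alb (circles) and mean of 25 liver genes (triangles) in each WT array, females red and males blue. Right, difference between WT males and WT females (log2, x axis) for the 12 largest increases and 12 largest decreases (y axis) in the full fit (black, bar SE), with Alb as a covariate (orange) and without the 4 arrays of highest Alb (green), of which Igfals moves from -1.06 to -0.61 and Cyfip2 from -2.91 to -3.58.

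Markers of other cell types gave 2 calls, and both ended with Alb as a covariate (limma adjusted p = 0.171 for Rgs5 and 0.18 for Musk) and without the 4 arrays of highest Alb (0.521 and 0.384). Each was the single call of a short list, 1 of 10 smooth muscle and pericyte genes (10%) and 1 of 13 neuromuscular junction genes (7.69%). Of all autosomal probe sets 1.29% were called. Among the 10 genes of smooth muscle and pericytes, Rgs5, a pericyte marker, was 0.26 higher in males (limma adjusted p = 0.0399). The mean level of that list was 8.01 to 8.36 in females and 8.00 to 8.41 in males. Among 13 genes of the neuromuscular junction, Musk, the receptor kinase that organises the synapse, was 0.75 higher (limma adjusted p = 0.0414), and the list ran from 6.09 to 6.52 in females and from 6.42 to 6.67 in males. With limma, 0 of 11 adipocyte, 11 endothelial, 13 fibroblast, 11 macrophage, 9 lymphocyte, 7 Schwann cell, 8 satellite cell and 9 skin markers passed. The macrophage list was below 0 in 10 of 11 members, with a mean level of 5.59 to 6.35 in females and 5.22 to 5.97 in males. Its part in other results was not tested. This lean was not particular to it, since 10 of 13 fibroblast and matrix markers were also below 0. The lymphocyte and endothelial lists leaned the other way, with 7 of 9 and 8 of 11 members above 0. The only red cell marker measured, Slc4a1, was at 0.08.

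The same comparison in the mice labelled Vps39+/-, fitted on those 12 arrays alone, called 102 autosomal probe sets (0.545%). They included 53 of the 241 WT calls, which is 22.0% of the WT list and 52.0% of the Vps39+/- list. A fit of the WT arrays alone, which shares no array or estimate of spread with it, called 86, of which 37 were shared, all in the same direction (43.0% and 36.3% of the lists). Of the 241 WT calls 228 had the same sign in Vps39+/- mice. The first number of the titles runs from 1 to 6 in Vps39+/- females and from 13 to 18 in Vps39+/- males. As in WT mice, neither this number nor the unstated hour of collection can be told apart from sex there, so shared calls do not separate them. The clock genes Per2, Ciart, Bhlhe41, Cry2, Arntl and Dbp passed again, at 1.099, 1.90, 0.99, 0.59, -0.87 and 1.32, and Per1 passed there at 0.72. Of the 14 clock and output genes called in WT mice, Per2, Ciart, Bhlhe41, Cry2, Arntl, Dbp and Tspan4 (0.51) passed in Vps39+/- mice. The other 7 did not, with Npas2 at -0.71, Clock at -0.39, Per3 at 0.27, Nr1d2 at 0.26, Coq10b at 0.42, Wee1 at 0.52 and Tcap at 0.22. Cyfip2 and Mybph were at -3.83 and -3.40, Slc15a5 at 2.40, C7 at 2.00, Amd2 at 1.83, Smox at 1.31, Odc1 at 1.13, Slc2a3 at 1.42 and Irs1 at -1.08, all past the threshold. Several genes outside the clock did not pass there, among them Cdkn1a (-1.20), Pfkfb3 (1.43), Mt2 (0.08), Mt1 (-0.33), Bmp7 (-0.10) and Igfals (0.29). The difference between the 2 sex effects passed for 0 autosomal probe sets with limma, of which 1455 had an unadjusted p under 0.05. The smallest adjusted p among the WT calls was 0.507, so none of these contrasts between genotypes held up, Igfals and Mt2 included (unadjusted p = 0.000721 and 0.00105).

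**Figure D5:**
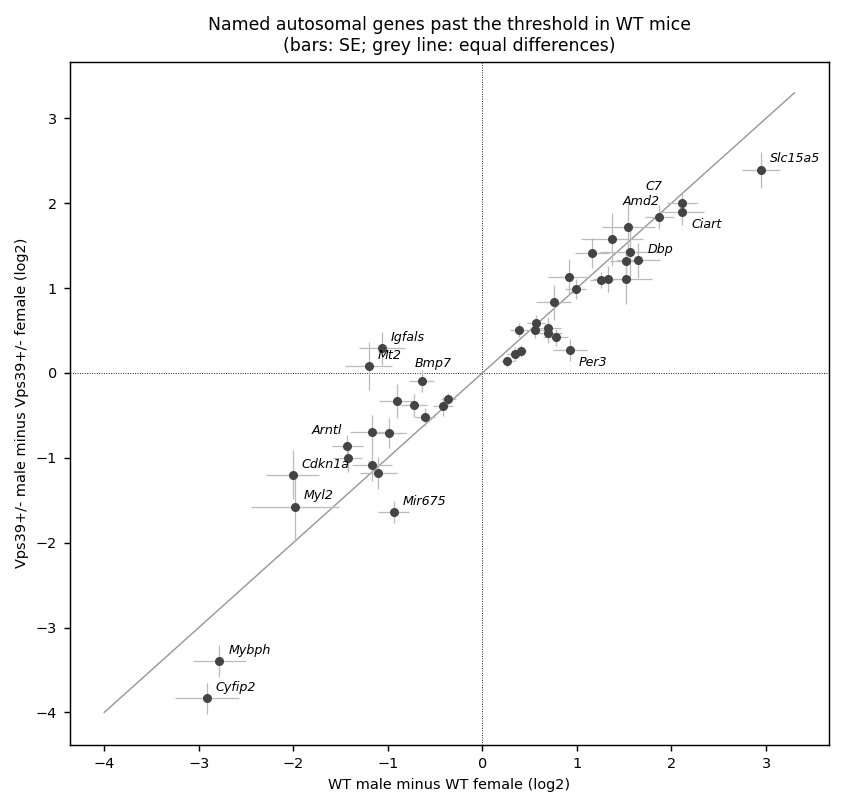
Difference between males and females (log2) in WT mice (x axis) and in Vps39+/- mice (y axis) for the named autosomal genes that passed in WT mice, with SE bars and a grey line where the differences are equal. Most points lie near the line, while Mt2 and Igfals lie near or above 0 in Vps39+/- mice and Per3 and Bmp7 lie closer to 0 there.

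Only title number 1, the number before the point, held WT mice of both sexes, 2 of each, and its meaning is not stated. Within it the differences were -1.48 for Arntl, 1.03 for Per2, 2.41 for Ciart, 1.35 for Dbp and 3.11 for Slc15a5. They were 1.66 for Amd2, -3.08 for Cyfip2, -1.96 for Mybph, -2.07 for Cdkn1a, 2.43 for Pfkfb3 and -0.70 for Irs1. These signs are those of the whole comparison. The same arrays went into the calls by which the genes were picked, so the shared signs are no separate evidence. With the number as a fixed block 28 of the 52 named calls, sex-linked checks included, ended. Among clock and output genes these were Clock, Npas2, Per3, Cry2, Tspan4 and Tcap, while Arntl, Per2, Ciart, Bhlhe41, Nr1d2, Dbp, Coq10b and Wee1 stood. Of the others, the calls of Slc2a3, Irs1, Pfkfb3, Pdp1, Odc1, Chac1, 1700001O22Rik, Htra4, Mettl21e, Mir675, Masp1, Mt1, Fbxo31, Bmp7, Igfals, Myl2, Tbx15, Vgll2, Rgs5 and Musk ended, as did those of the X-linked Kdm5c and Kdm6a. The labels give separate samples and do not say more of their origin, so p-values measure the spread between these samples.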

How the data were processed

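RNA of 24 whole tibialis anterior muscles was measured on Clariom S mouse arrays. The authors processed the scans with Affymetrix Expression Console 1.4.1.46 and RMA, which corrects background, quantile normalises the arrays and summarises probes, and deposited the log2 values used here. RMA makes the distributions of all arrays alike and compresses dim and saturated levels, so that a change shared by most genes is removed. No source used here names the genome build behind the probe annotation. Precision is limited by the number of mice, 6 per group.

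Of 28846 probe sets, 6640 were controls. Of the other 22206, 19572 carried 1 gene symbol, 2634 none and 0 several. Symbols were matched by Entrez identifier to RefSeq (GRCm38.p6), with 19572 matched, which also gave the chromosome (18723 autosomal, 845 on X or Y, 4 elsewhere). Groups came from the titles, and replicate numbers follow the order of accessions and pair no mice.

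Group means of all 24 arrays were fitted with limma 3.58.1 in R 4.3.3, two-sided, with Benjamini-Hochberg adjustment over all named probe sets and a threshold of 0.05. A p-value below the threshold is called passing. The script was tested on simulated data. Alb was compared by an exact permutation test over 924 relabellings. Members and gene lists were chosen with earlier results of these data known. Named genes were the 12 largest increases and 12 largest decreases past the threshold whose mean was at least 5, and for each of 29 lists the members past the threshold, filled to 4 by smallest p, with the probe set of highest mean for each gene. Vps39, Alb and 7 sex-linked genes were added as checks. Some list members given as values outside this rule were named after values were seen. Alternatives were 2 other normalisations, filters on dim or unnamed probe sets, other settings of the fit, the methods' t-test, Alb or liver genes as covariates, leaving out arrays of high Alb, title number as a block (statmod 1.5.0 for the random block) and leaving out each WT array.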

Additional observations from a re-analysis of the deposited data

Results flagged for a closer look

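A single array stood apart from the other 5 of its group, by Dixon's test for groups of 6, in 14 of 160 groups checked, where chance flags about 1 in 20. WT male 6, which also had the highest Alb of the males, accounted for 6 of them. In it Cyfip2 was 7.47 (other males 4.84 to 5.75), Bmp7 3.51 (3.91 to 4.14), Smad3 7.51 (8.02 to 8.29), Alb 11.18 (5.38 to 7.17), and the liver genes Serpinc1 and Hpx 6.33 and 6.24 (3.58 to 3.98, and 4.28 to 4.67). Without this array the Cyfip2 difference was -3.30 (limma adjusted p = 1.02e-08).

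Pcx was high in WT female 2 at 8.36 (other females 7.805 to 8.00) and in WT male 4 at 7.804 (other males 7.07 to 7.21). Nr4a3 was low in WT female 2 at 7.05 (8.45 to 9.11), and Odc1 was high in WT female 1 at 8.36 (7.44 to 7.73). In WT female 3, Myh2 was 12.03 (12.79 to 13.04) and Ckmt2, the mitochondrial creatine kinase, 11.05 (11.33 to 11.47). Nr1d2 was 9.35 in WT male 5 (9.17 to 9.24) and Vtn, a liver gene, was 8.12 in WT male 2 (8.42 to 8.51).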

How the results depend on the processing

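The 241 calls (160 higher, 81 lower) became 86 (56 and 30) in a fit of the 12 WT arrays alone, 373 (256 and 117) with an intensity trend and robust prior, and 82 (60 and 22) with the methods' t-test after Benjamini-Hochberg adjustment, which had 2145 below 0.05 before it. Array weights gave 105 higher calls. With Alb as a covariate there were 116 (72 and 44), with the liver list mean 133 (71 higher), without the 2 arrays of highest Alb 152 (84 higher) and without the 4 highest 98 (56 and 42). Title number as a fixed block gave 96 (70 and 26). Calls lower in males numbered 51 after median shifts and 125 after cyclic loess. Leaving out each WT array in turn gave 159 to 206 calls, 94 to 142 higher and 48 to 67 lower. The fewest came without WT male 5 (159), and 160 remained without WT female 2. The Alb difference then ranged from -4.03 to -2.62, and it was past the threshold without WT female 4 (-3.92), WT female 5 (-3.81) or WT male 6 (-4.03). The causes of these shifts were not tested.

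No named gene that had passed changed direction under any alternative run. The calls of Igfals, Myl2, Tbx15, Htra4, Odc1, Tcap, Rgs5, Musk and Clock ended in 15 to 17 of 26 alternatives. Of 52 named calls, 14 ended in the fit of the 12 WT arrays alone (these without Musk, and Tspan4, Per3, Masp1, Pdp1, Bmp7 and Fbxo31), 24 with the methods' t-test (all of these with Musk, and Coq10b, Mir675, Mettl21e, Irs1, Vgll2, Pcx, Wee1, Mt1 and Kdm5c) and 28 with title number as a fixed block. Replicate numbers follow accession order and were not used to pair mice, and title number was the only block fitted. The hour of collection and the title's running number cannot be told apart from sex, and dim probe sets limit what can be measured.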

Other observations

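The growth axis list did not hold 2 further regulators of IGF availability, named here after their values were seen. Pappa, a protease that frees IGF from its binding proteins, was 3.94 to 4.50 in WT females and 3.21 to 3.71 in WT males (-0.72, SE 0.12, limma adjusted p = 0.00172). Stc2, an inhibitor of that protease, was 4.49 to 5.42 in females and 3.51 to 4.22 in males (-1.03, SE 0.18, limma adjusted p = 0.00232). Both were dim, neither overlapped between the sexes, and both passed with Alb as a covariate (-0.76 and -1.11), while without the 4 arrays of highest Alb only Stc2 did (limma adjusted p = 0.0535 for Pappa and 0.0261 for Stc2). In Vps39+/- mice they were at -0.45 and -0.34 and did not pass.

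Of 7 measured mu class glutathione S-transferase genes, enzymes that conjugate glutathione to toxins, 4 fell in males and 6 were below 0, where 0.433% of all autosomal probe sets fell and 8450 of 18723 were below 0. The family was chosen after its values were seen, so that these counts are a description only. Gstm2 was 9.07 to 9.47 in WT females and 8.20 to 8.52 in WT males (-0.88, SE 0.09, limma adjusted p = 3.11e-06), and it passed with Alb as a covariate (-0.95) and in Vps39+/- mice (-0.62, limma adjusted p = 0.00968). Gstm1, Gstm3 and Gstm6 were at -0.45, -0.58 and -0.82, and none of them passed with Alb as a covariate (limma adjusted p = 0.0841, 0.171 and 0.207). The genes are close paralogs, and their probe sets can share signal.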
